A study of Homo sapiens with 6 samples.

Results

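The genes described here encode the IGF binding proteins and the receptors of the insulin-like growth factors: IGFBP1 to IGFBP7, IGF1R, IGF2R and INSR. They were chosen by gene symbol, and all 10 were found among the 52401 genes of the deposited tables. RNA was sequenced from 2 stable lines of MCF10A, a non-tumorigenic human mammary epithelial cell line with basal features. The MCF10AF1F2 line (3 samples) carries retroviral vectors for flotillin 1 with an HA tag and flotillin 2 fused to mCherry and was selected with puromycin and hygromycin. The MCF10AmCherry line (3 samples) carries a retroviral vector for mCherry alone and was selected with puromycin only. Flotillins organise microdomains of the plasma membrane and take part in endocytosis, and the comparison asks how transcript levels differ when both are raised. All 6 samples came from medium with 10 µg/ml insulin, 20 ng/ml EGF, 5% horse serum, hydrocortisone and cholera toxin, so both lines had a ligand of INSR present throughout. Each group is a single stable line, so the flotillins cannot be told apart from other differences between the lines, the second vector and hygromycin among them. The labels do not say whether the 3 samples of a line were separate cultures, and the p-values then rest on sample-to-sample spread that may be technical. In bulk RNA, fewer cells that express a gene and less RNA per cell cannot be told apart.

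IGF1 and IGF2 are secreted growth factors that signal through IGF1R, a receptor tyrosine kinase at the cell surface. INSR, its closest relative, binds insulin and, in its shorter isoform, also IGF2, and insulin at high concentration can act through IGF1R too. IGF2R is the cation-independent mannose 6-phosphate receptor, which has no kinase: it carries lysosomal enzymes from the Golgi to endosomes and clears IGF2 from the cell surface. IGFBP1 to IGFBP6 bind IGFs in the extracellular fluid with high affinity and set how much ligand reaches the receptors, while IGFBP7 binds IGFs weakly. Proteases such as pappalysin cut some of the binding proteins and release the ligand.

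The called differences among the 10 genes were both at receptors, so the promoters of the 3 receptor genes are shown. Each is the stretch of 250 bases before the RefSeq transcription start (build GRCh38.p14): chr15:98648289-98648538 on the + strand for IGF1R, chr19:7294415-7294664 on the - strand for INSR and chr6:159968832-159969081 on the + strand for IGF2R. Capitals mark matches on either strand to the GC box (GGGCGG), the target of SP1-type factors, to an E-box (CAGGTG) of the kind bound by ZEB1 and ZEB2, and to the core of the FOXO element (GTAAACA).
IGF1R: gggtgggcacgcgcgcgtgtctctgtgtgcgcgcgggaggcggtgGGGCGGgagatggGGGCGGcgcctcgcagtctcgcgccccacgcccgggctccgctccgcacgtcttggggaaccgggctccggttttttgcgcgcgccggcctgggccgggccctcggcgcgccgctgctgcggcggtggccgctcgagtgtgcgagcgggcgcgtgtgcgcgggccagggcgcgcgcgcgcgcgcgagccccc
INSR: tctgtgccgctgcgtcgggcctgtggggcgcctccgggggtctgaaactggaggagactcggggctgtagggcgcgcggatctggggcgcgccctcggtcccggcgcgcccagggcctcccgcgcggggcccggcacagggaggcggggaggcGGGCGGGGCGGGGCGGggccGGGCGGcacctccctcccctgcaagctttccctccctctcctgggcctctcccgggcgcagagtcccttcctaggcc
IGF2R: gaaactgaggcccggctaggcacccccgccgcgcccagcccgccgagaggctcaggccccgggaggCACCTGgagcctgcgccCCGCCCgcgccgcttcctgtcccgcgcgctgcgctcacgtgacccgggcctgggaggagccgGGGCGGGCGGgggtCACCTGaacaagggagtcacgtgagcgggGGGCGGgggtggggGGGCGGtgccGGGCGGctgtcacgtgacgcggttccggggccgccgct
The windows searched were 300 bases long, from 250 before to 50 after the start. The IGF1R window held 2 GC boxes and neither of the other motifs, and the INSR window held 4 GC boxes, some of them overlapping, and neither of the others. The IGF2R window held 6 GC boxes, 2 of them overlapping, and 2 E-boxes. Of all 35116 such windows in the RefSeq table, 45.0% held the GC box, 20.6% the E-box and 3.42% the FOXO core. The GC content was 79.7% in IGF1R, 78.3% in INSR and 78.7% in IGF2R, against a median of 58.7% over all windows. A match is only a match of letters. Among the other members 5 had a window; IGFBP6 held 1 match of each motif, IGFBP3 held 2 GC boxes and 1 E-box, and IGFBP5 held none of the 3 motifs.

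Values below are normalized counts. The authors' tables give group means, and the value of each library was recovered from the digits of those means. Libraries are called 1 to 3 within a line in order of falling size factor and carry no replicate number. The recovered whole numbers summed to between 19091474 and 20133901 per MCF10AF1F2 library and to between 20133368 and 20506518 per MCF10AmCherry library, but gaps and doublings among the low values show that they had been multiplied by a factor and rounded before deposit. Divided by that factor they correspond to 20407776 to 23289648 reads per MCF10AF1F2 library and 14937037 to 21827055 per MCF10AmCherry library, over the recovered genes only. Genes whose library values could not be recovered are not in these sums. They held 18.3% of the normalized counts in MCF10AF1F2 and 19.2% in MCF10AmCherry. Because of the rescaling no counting intervals are given. The authors' means rest on the same rescaled numbers, and the effect on their p-values was not tested. Library 3 stood farthest from the other libraries in both lines, with a median log2 distance of 0.28 in MCF10AF1F2 (0.17 and 0.20 for libraries 1 and 2) and 0.44 in MCF10AmCherry (0.30 and 0.28). FLOT1 was 11.4-fold higher and FLOT2 11.01-fold higher in MCF10AF1F2 by group mean; the fusion transcripts are not separated from the endogenous ones.

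In the receptor group IGF1R and INSR fell in MCF10AF1F2 cells, and IGF2R did not pass the test. Of the binding protein genes, 0 passed it in either direction. A gene is called here where the authors' adjusted p in the table of means is under 0.05. Of the 8 members with an adjusted p, 2 were lower and 0 were higher, beside 12.0% lower and 11.6% higher among the 19733 genes with an adjusted p. Of the 5 binding protein genes with an adjusted p, 0 had an unadjusted p under 0.05 in that table, and 0 were called in the Tuxedo table or by limma. IGFBP5, among these 5, could not be called in the latter, being marked as not tested in Tuxedo and too low for the limma fit. The 2 members called there were the same, beside 10.0% lower and 6.93% higher of 17022 genes in Tuxedo and 11.1% lower and 12.2% higher of 15907 genes in limma. The median log2 fold change was -1.08 for the 3 receptor genes and 0.14 for the 5 binding protein genes with an adjusted p, and -0.04 for all genes tested. For the 11463 of them whose mean reached 100, that median was 0.11.

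IGF1R (ENSG00000140443, chromosome 15, 99192200 to 99507759 in GRCh37) had 1484, 1337 and 1717 normalized counts in MCF10AF1F2 libraries 1 to 3, against 6160, 6178 and 3600 in MCF10AmCherry libraries 1 to 3. Every MCF10AF1F2 library lay below every MCF10AmCherry library, and MCF10AmCherry library 3 was the nearest to them. The means were 1513 ± 192 in MCF10AF1F2 and 5313 ± 1484 in MCF10AmCherry (SD, n = 3 each), a level 3.51-fold lower in MCF10AF1F2. IGF1R has a log2 fold change of -1.74 (adjusted p = 5.50e-08) in the authors' deposited table of means, and of -1.82 with q = 0.000804 in the authors' deposited Tuxedo table. A limma fit to the recovered libraries gave -1.78 ± 0.25 (SE; 95% interval -2.35 to -1.20; adjusted p = 0.00418). Leaving out any single library gave limma estimates from -2.04 to -1.65, all called. Of the 15907 genes in that fit, all 3 MCF10AF1F2 libraries lay below all 3 MCF10AmCherry libraries in 21.1% and above them in 24.2%, so a lack of overlap was common.

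INSR (ENSG00000171105, chromosome 19, 7112266 to 7294011) had 574, 445 and 517 normalized counts in MCF10AF1F2 libraries, against 1375, 1166 and 805 in MCF10AmCherry libraries. The groups did not overlap, and library 3 was again the lowest of the MCF10AmCherry libraries. The mean was 512 ± 64.8 in MCF10AF1F2 and 1115 ± 288 in MCF10AmCherry (SD, n = 3 each), 2.18-fold lower in MCF10AF1F2. INSR has a log2 fold change of -1.08 (adjusted p = 0.00133) in the authors' deposited table of means, and of -1.20 with q = 0.00147 in the authors' deposited Tuxedo table. The limma estimate was -1.09 ± 0.24 (SE; 95% interval -1.65 to -0.54; adjusted p = 0.0189). That call was lost when library 1 or library 2 of either line was left out, with estimates from -1.18 to -0.93 and adjusted p from 0.0604 to 0.0809 in limma. Gene-level values do not separate the INSR isoforms.

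IGF2R (ENSG00000197081, chromosome 6, 160390131 to 160534539) had 11999, 10556 and 14220 normalized counts in MCF10AF1F2 libraries, against 19600, 18609 and 14526 in MCF10AmCherry libraries. The groups did not overlap, but library 3 of the 2 lines lay close together. Means were 12259 ± 1846 in MCF10AF1F2 and 17579 ± 2690 in MCF10AmCherry (SD, n = 3 each). The log2 fold change was -0.51 (adjusted p = 0.115; unadjusted p = 0.0370) in the authors' deposited table of means and -0.65 with q = 0.317 in the authors' deposited Tuxedo table. In limma it was -0.52 ± 0.21 (SE; 95% interval -1.0 to -0.04; adjusted p = 0.103), while without library 3 of both lines it was -0.76 with an adjusted p of 0.00749. In that fit 20.6% of all genes were lower and 23.7% higher. Without MCF10AmCherry library 3 alone it was -0.65 with an adjusted p of 0.0372. With all 6 libraries and a term for library 3, a setting chosen after seeing the data, it was -0.52 with an adjusted p of 0.0403. Its locus also holds 1 other annotated gene with a mean of at least 10.

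**Figure D1:**
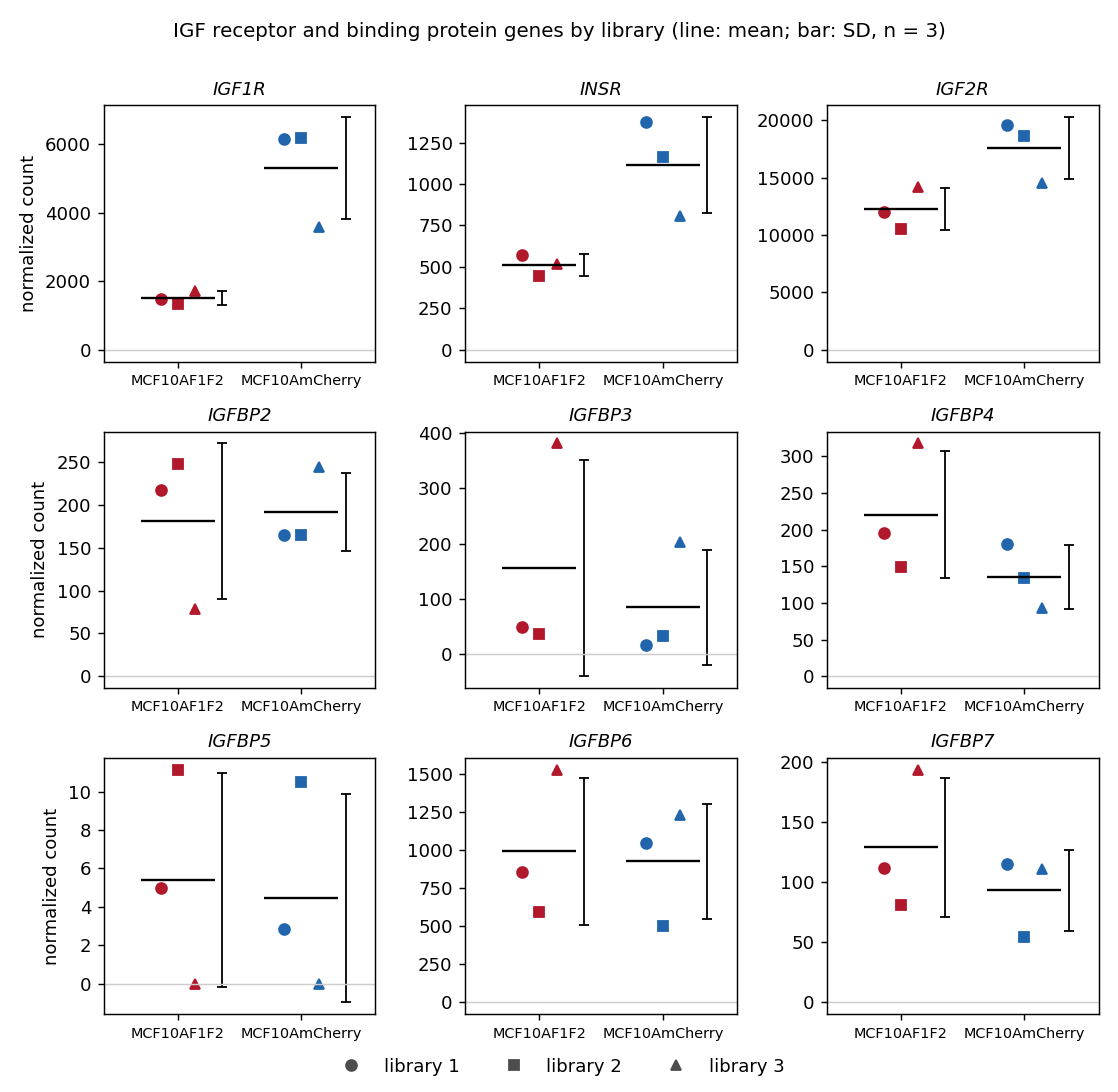
Normalized counts (vertical axes, linear, a separate scale for each gene) of the 9 member genes with a value above 0, by library, with MCF10AF1F2 in red and MCF10AmCherry in blue; horizontal lines are means and bars are the SD of 3 libraries. IGF1R lies at 1337 to 1717 in MCF10AF1F2 and 3600 to 6178 in MCF10AmCherry without overlap, whereas IGFBP3 splits by library 3 in both lines.

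The receptor transcripts are also given in proportion to each other, as ratios built from the library values above and so not a separate result. IGF1R over INSR, as a ratio of normalized counts within a library and so not corrected for length, was 2.585, 3.005 and 3.320 in MCF10AF1F2 and 4.48, 5.30 and 4.47 in MCF10AmCherry. IGF1R over IGF2R was 0.124, 0.127 and 0.121 in MCF10AF1F2, against 0.314, 0.332 and 0.248 in MCF10AmCherry. INSR over IGF2R was 0.0478, 0.0421 and 0.0364 in MCF10AF1F2, against 0.0701, 0.0626 and 0.0554 in MCF10AmCherry. No ratio overlapped between the lines, but how often ratios of other gene pairs do so was not counted. The differences of the mean log2 ratio were -0.68 for IGF1R over INSR, -1.26 for IGF1R over IGF2R and -0.58 for INSR over IGF2R. They follow from the fold changes of the 3 genes and are not independent of each other. Each of the 3 ratios gave an exact two-sided permutation p of 0.1, which is the smallest that this permutation test can give with 3 against 3 samples. These ratios do not depend on the scaling of the libraries.

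Levels per transcript length come from the authors' FPKM, a single value per line with no spread over samples. In MCF10AF1F2 the order was IGF2R (67.0 FPKM), IGFBP6 (51.0), IGFBP2 (11.5), IGF1R (5.81), IGFBP4 (4.20), IGFBP3 (2.79), IGFBP7 (2.78), INSR (2.08), IGFBP5 (0.030) and IGFBP1 (0). In MCF10AmCherry it was IGF2R (105 FPKM), IGFBP6 (50.5), IGF1R (20.6), IGFBP2 (12.7), INSR (4.79), IGFBP4 (2.86), IGFBP7 (2.29), IGFBP3 (1.61), IGFBP5 (0.029) and IGFBP1 (0). IGF1R stood below IGFBP2 in MCF10AF1F2 and above it in MCF10AmCherry, and INSR stood below IGFBP4, IGFBP7 and IGFBP3 in MCF10AF1F2 and above them in MCF10AmCherry. Whether neighbours in these orders differ beyond their spread cannot be told from single values. The 7 binding protein genes summed to 72.4 FPKM in MCF10AF1F2 and 70.0 FPKM in MCF10AmCherry. IGFBP6 made up 70.5% of that sum in MCF10AF1F2 and 72.1% in MCF10AmCherry.

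**Figure D2:**
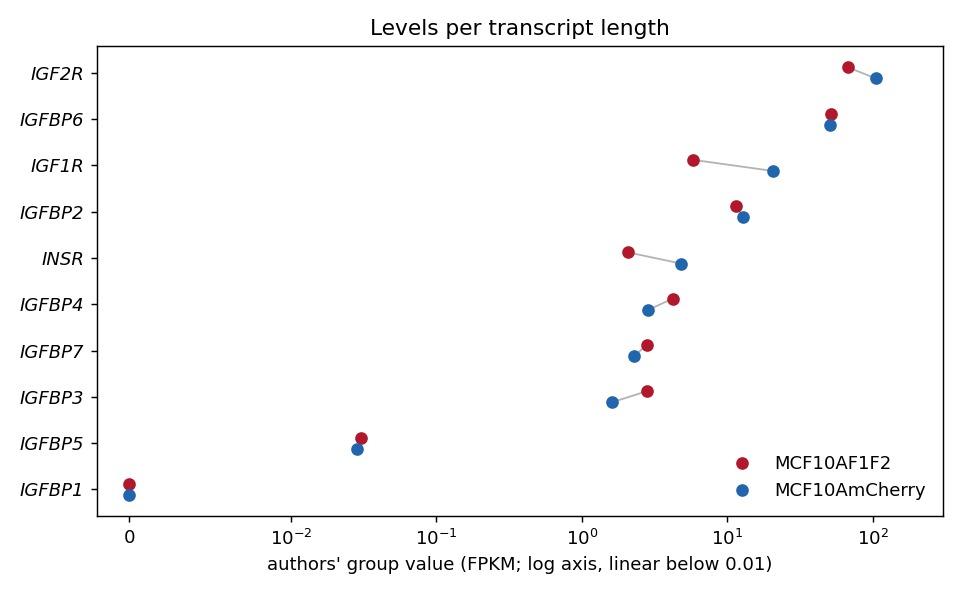
Authors' FPKM per line (horizontal axis, logarithmic above 0.01 and linear below it) for the 10 genes, MCF10AF1F2 in red above MCF10AmCherry in blue, with no replicate spread in the source. IGF2R leads both lines, at 67.0 FPKM in MCF10AF1F2 and 105 in MCF10AmCherry, and IGF1R shows the widest gap, at 5.81 FPKM in MCF10AF1F2 and 20.6 in MCF10AmCherry.

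IGFBP6 (chromosome 12, 53491436 to 53496128), a binding protein that prefers IGF2 over IGF1, was the leading binding protein gene in both lines. It had 854, 590 and 1526 normalized counts in MCF10AF1F2 libraries, against 1044, 504 and 1227 in MCF10AmCherry libraries. The ranges lay almost on top of each other, and in each line library 2 was the lowest and library 3 the highest. The log2 fold change is 0.09 (adjusted p = 0.901) in the authors' deposited table of means. The limma estimate was 0.08 with a 95% interval from -0.94 to 1.10. The sign of the IGFBP6 estimate turned without MCF10AF1F2 library 3 (-0.28), without MCF10AmCherry library 2 (-0.30) and without library 3 of both lines (-0.03).

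IGFBP2 (chromosome 2, 217497551 to 217529159) had 218, 248 and 78.1 normalized counts in MCF10AF1F2 libraries, against 165, 165 and 245 in MCF10AmCherry libraries. Library 3 was the lowest of its line in MCF10AF1F2 and the highest of its line in MCF10AmCherry. The authors' deposited table of means has a log2 fold change of -0.07 (adjusted p = 0.919), and limma gave -0.22 (95% interval -1.26 to 0.83; adjusted p = 0.738). Without MCF10AF1F2 library 3 the limma estimate was 0.30 (adjusted p = 0.511), and without library 3 of both lines it was 0.49 (adjusted p = 0.128). The direction of IGFBP2 thus turned when MCF10AF1F2 library 3 was left out. It neighbours IGFBP5, with 7.7 kb between their loci.

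IGFBP3 (chromosome 7, 45951951 to 45961473), the main carrier of IGFs in blood, had 49.0, 36.5 and 381 normalized counts in MCF10AF1F2 libraries, against 17.1, 32.5 and 203 in MCF10AmCherry libraries. Library 3 was far above the other libraries in both lines, 8.92-fold above their mean in MCF10AF1F2 and 8.202-fold in MCF10AmCherry, and the ranges of the lines overlapped. The means were 156 ± 196 in MCF10AF1F2 and 84.3 ± 103 in MCF10AmCherry (SD, n = 3 each). The authors' deposited table of means lists a log2 fold change of 0.48 for IGFBP3 without a p-value, as for 29 of the 28867 genes with a fold change, and their Tuxedo table gives 0.79 with q = 0.181. In limma the estimate was 0.84 ± 1.16 (SE; adjusted p = 0.612), and it was -0.20 (adjusted p = 0.904) without MCF10AF1F2 library 3. With the term for library 3 the same estimate had an SE of 0.30 and an adjusted p of 0.0400, with 21.5% of all genes lower and 24.6% higher. Without library 3 of both lines it was 0.81 with an adjusted p of 0.143.

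IGFBP4 (chromosome 17, 38599713 to 38613983), the main substrate of pappalysin, had 195, 149 and 318 normalized counts in MCF10AF1F2 libraries, against 180, 134 and 92.8 in MCF10AmCherry libraries. The ranges overlapped. The means were 221 ± 87.2 in MCF10AF1F2 and 136 ± 43.8 in MCF10AmCherry (SD, n = 3 each). In the authors' deposited table of means the log2 fold change is 0.65 (adjusted p = 0.199). Over libraries 1 and 2 alone the ratio of the means was 1.09, and the limma estimate was 0.13 with an adjusted p of 0.723.

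IGFBP7 had 112, 81.1 and 193 normalized counts in MCF10AF1F2 libraries, against 115, 54.5 and 111 in MCF10AmCherry libraries. The ranges overlapped. The log2 fold change was 0.43 (adjusted p = 0.483) in the authors' deposited table of means. Its locus on chromosome 4 is joined in the Tuxedo table with those of 9 other genes, POLR2B among them, so its own bounds are not given. IGFBP5, which binds both IGFs and extracellular matrix, was near the lower end of what was measured, with 5.00, 11.1 and 0 normalized counts in MCF10AF1F2 libraries and 2.85, 10.5 and 0 in MCF10AmCherry libraries. Library 3 was at 0 in both lines and library 2 was the highest in both. The authors' deposited table of means has 0.14 with an adjusted p of 0.916 for IGFBP5. IGFBP1, a binding protein known mainly from liver, is listed at 0 in both lines and in both tables; its neighbour IGFBP3, with 18.7 kb between their loci, was detected.

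**Figure D3:**
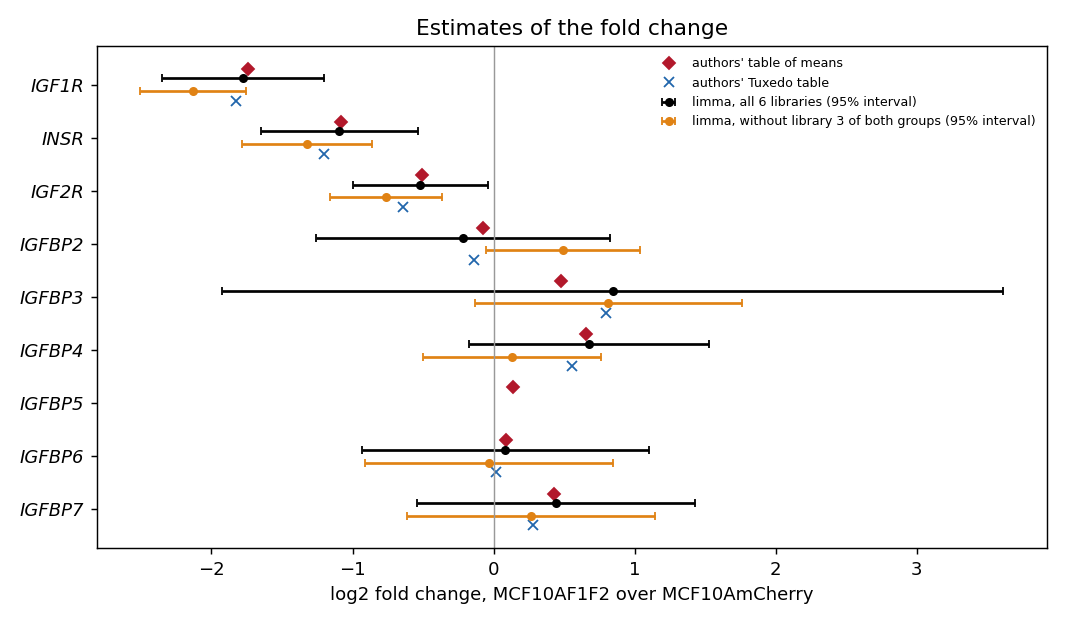
Log2 fold change of MCF10AF1F2 over MCF10AmCherry for 9 genes, from the authors' table of means (diamonds), their Tuxedo table (crosses), limma on all 6 libraries (black) and limma without library 3 of both lines (orange), with 95% intervals on the limma values. IGF1R and INSR lie below 0 in each estimate drawn, and IGFBP2 crosses from -0.22 to 0.49 between the limma fits.

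**Figure D4:**
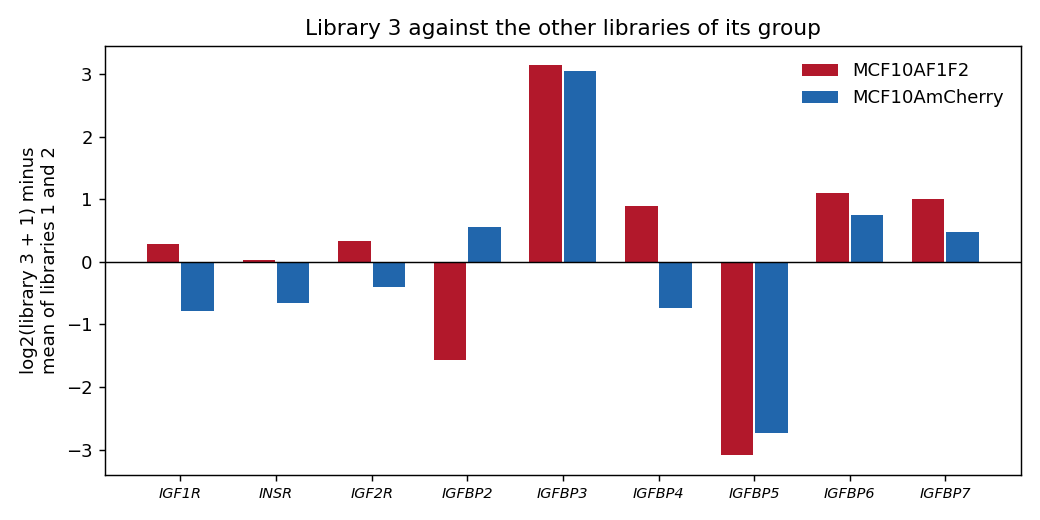
Difference between library 3 and the mean of libraries 1 and 2 of the same line, on the log2(normalized count + 1) scale, for 9 genes, with MCF10AF1F2 in red on the left of each pair and MCF10AmCherry in blue. IGFBP3 reaches 3.14 in MCF10AF1F2 and 3.05 in MCF10AmCherry, while IGFBP2 and IGFBP4 have bars of opposite sign in the 2 lines.

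Library 3 deviated in the same direction in both lines for IGFBP3, IGFBP5, IGFBP6 and IGFBP7 and in opposite directions for IGFBP2, IGFBP4, IGF1R and IGF2R, with INSR at 0.03 in MCF10AF1F2 and -0.65 in MCF10AmCherry, as the plot of library 3 against the other libraries shows. Over 11373 genes the deviations from the line mean of the 2 libraries numbered 3 had a Pearson correlation of 0.50, while those numbered 1 had 0.32, those numbered 2 had 0.19, and MCF10AF1F2 library 2 had 0.29 with MCF10AmCherry library 1. Library 3 of each line correlated negatively with libraries 1 and 2 of the other line, from -0.44 to -0.22. Deviations within a line cancel out for each gene, so these negative values follow in part from the 0.50 and are not a separate observation. These are descriptions across genes, which are not independent, and the numbers follow the size factors, not the labels. The part of this difference in the results above was looked at only with the fits without library 3 and the fit with a term for it.

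The ligand genes were scarce. IGF2, the ligand shared by IGF1R, IGF2R and the shorter INSR isoform, had 31.0, 13.2 and 21.6 normalized counts in MCF10AF1F2 libraries, against 0, 0.956 and 2.96 in MCF10AmCherry libraries. All 3 MCF10AF1F2 values lay above the MCF10AmCherry ones. In the authors' deposited table of means IGF2 rose, with a log2 fold change of 2.90 and adjusted p = 0.000116. The log2 ratio of the IGF2 group means was 4.07. In limma its adjusted p was 0.0112, and 0.0590 without MCF10AF1F2 library 1. The authors' deposited Tuxedo table marks IGF2 as not tested. The IGF2 locus also holds INS-IGF2 and the antisense gene IGF2AS, and the labels do not say whether reads were counted by strand. IGF1 averaged 4.05 in MCF10AF1F2 and 8.03 in MCF10AmCherry normalized counts, with adjusted p = 0.406 in the authors' deposited table of means. The read-through gene INS-IGF2 is listed at 0 in both lines, and INS itself was not analysed here.

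Outside the members, 98 genes of the wider IGF pathway were in the tables, grouped by role in lists drawn up with earlier results of these data known. Of the 90 with an adjusted p, 16 rose and 18 fell, with a median log2 fold change of 0.20 (authors' deposited table of means). These shares stand beside the 11.6% and 12.0% given above for all genes. Group means in the following sentences are from the same table.

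The genes related to IGF binding proteins or to the ternary complex that carries IGFs in blood numbered 6 with an adjusted p. They include the member IGFBP7, which was not called. Of the 6, 4 rose and 0 fell, with a median of 1.47 and 0 lower at an unadjusted p under 0.05. CTGF and CYR61, matricellular proteins whose first domain resembles that of an IGF binding protein, rose to 3254 and 3078 normalized counts in MCF10AF1F2, against 197 and 597 in MCF10AmCherry (log2 fold changes 3.89 and 2.26, adjusted p = 3.81e-40 and 6.60e-12). Their relative NOV rose to 205 in MCF10AF1F2, against 82.5 in MCF10AmCherry (adjusted p = 0.0004). WISP2 rose to 154 in MCF10AF1F2, against 62.3 in MCF10AmCherry (adjusted p = 0.0432; 0.0573 in limma). CTGF and CYR61 are also known as targets of YAP and of TGF-beta signalling.

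Among proteases of the binding proteins and their inhibitors, 2 of 12 rose and 5 fell, with a median of -0.47. PAPPA, which encodes pappalysin, had 3032, 2046 and 2031 normalized counts in MCF10AF1F2 libraries and a mean of 2370 ± 574, against 353 ± 95.5 in MCF10AmCherry (SD, n = 3 each), 6.72-fold higher (adjusted p = 3.56e-16). MMP2, a gelatinase, rose to 1921 in MCF10AF1F2, against 176 in MCF10AmCherry (adjusted p = 7.51e-12). PLAT, tissue plasminogen activator, fell to 1389 in MCF10AF1F2, against 5796 in MCF10AmCherry (adjusted p = 9.31e-08). MMP9 is listed at 0 in each MCF10AF1F2 library, against a mean of 5.85 in MCF10AmCherry (adjusted p = 0.0266). Its values were too low for the limma fit, and the authors' deposited Tuxedo table marks it as not tested. STC1 and STC2, stanniocalcins that inhibit pappalysin, were named after their values were seen: they fell to 417 and 1829 in MCF10AF1F2, against 1619 and 3388 in MCF10AmCherry (adjusted p = 1.27e-06 and 0.0022). PAPPA over STC2, a ratio within a library, was 1.32 ± 0.37 in MCF10AF1F2 and 0.103 ± 0.019 in MCF10AmCherry (SD, n = 3 each).

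Of 21 receptor substrates, adaptors and brakes, 3 rose and 3 fell, with a median of 0.24. IRS1, the docking protein that couples IGF1R and INSR to PI3K, had 803, 697 and 726 normalized counts in MCF10AF1F2 libraries and a mean of 742 ± 54.8, against 99.2 ± 40.8 in MCF10AmCherry (SD, n = 3 each), 7.48-fold higher (adjusted p = 1.55e-14). IRS1 was thus high in the line in which IGF1R and INSR were low. IRS2, its relative, rose to 828 in MCF10AF1F2, against 370 in MCF10AmCherry (adjusted p = 0.000363). PTPRF, a receptor phosphatase that acts on the insulin receptor, fell to 638 in MCF10AF1F2, against 9518 in MCF10AmCherry (adjusted p = 3.44e-23). GRB14, an adaptor that inhibits the insulin receptor kinase, fell to 49.4 in MCF10AF1F2, against 265 in MCF10AmCherry (adjusted p = 2.40e-11).

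Of the 22 PI3K, AKT, mTOR and FOXO genes, 2 rose and 2 fell, and the other 18 did not pass the test. The median was 0.26. Among those 18, FOXO3 had 0, 4522 and 2834 normalized counts in MCF10AF1F2 libraries, against 1913, 1652 and 1362 in MCF10AmCherry libraries. The authors' deposited Tuxedo table calls it higher (log2 fold change 1.17, q = 0.000804). PIK3R1 had 11524, 12481 and 6841 in MCF10AF1F2 libraries, against 0, 5357 and 2857 in MCF10AmCherry libraries (Tuxedo q = 0.168). The source of these values of 0 was not tested. FOXO1, a transcription factor that AKT keeps out of the nucleus, rose to 6391 in MCF10AF1F2, against 1780 in MCF10AmCherry (adjusted p = 3.78e-08). PIK3R2, a regulatory subunit of PI3K, rose to 3001 in MCF10AF1F2, against 1900 in MCF10AmCherry (adjusted p = 0.0132). TSC1 and RICTOR, a brake on mTOR and a subunit of mTOR complex 2, both fell with log2 fold changes of -0.94 (adjusted p = 0.0302 and 0.0212). In limma neither TSC1 (adjusted p = 0.0809) nor RICTOR (adjusted p = 0.0568) was called, and the TSC1 ranges of the lines overlapped.

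IGF2R shares mannose 6-phosphate sorting with 12 listed genes, of which 2 rose and 4 fell, with a median of -0.01. M6PR, the smaller mannose 6-phosphate receptor, fell to 3807 in MCF10AF1F2, against 6636 in MCF10AmCherry (adjusted p = 0.00342). GNPTAB, a subunit of the enzyme that makes the mannose 6-phosphate tag, fell with a log2 fold change of -0.90 (adjusted p = 0.0150). VPS26A, a retromer subunit, and AP1M1, an adaptor subunit, rose with log2 fold changes of 1.10 and 0.92 (adjusted p = 0.00139 and 0.00195). Of the 4 proprotein convertases, a family that cleaves the IGF1R and INSR precursors, PCSK5 and PCSK6 fell with log2 fold changes of -1.69 and -1.61 (adjusted p = 0.000139 and 6.98e-09), and the list had a median of -0.95. PCSK6 averaged 534 in MCF10AF1F2 and 1688 in MCF10AmCherry.

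Of 3 IGF2 mRNA-binding protein genes, IGF2BP3 rose with a log2 fold change of 0.67 (adjusted p = 0.0330). Of 9 TGF-beta family genes and other partners of IGFBP3 and IGF2R, 1 rose and 2 fell, with a median of -0.17. TGFB2, a ligand, rose to 539 in MCF10AF1F2, against 156 in MCF10AmCherry (adjusted p = 1.85e-05), and TGFBR1, a receptor, fell with a log2 fold change of -0.92 (adjusted p = 0.0123). PLAUR, the urokinase receptor, fell with -1.43 (adjusted p = 0.0361). The PLAUR ranges overlapped, and in limma it was not called (adjusted p = 0.202).

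**Figure D5:**
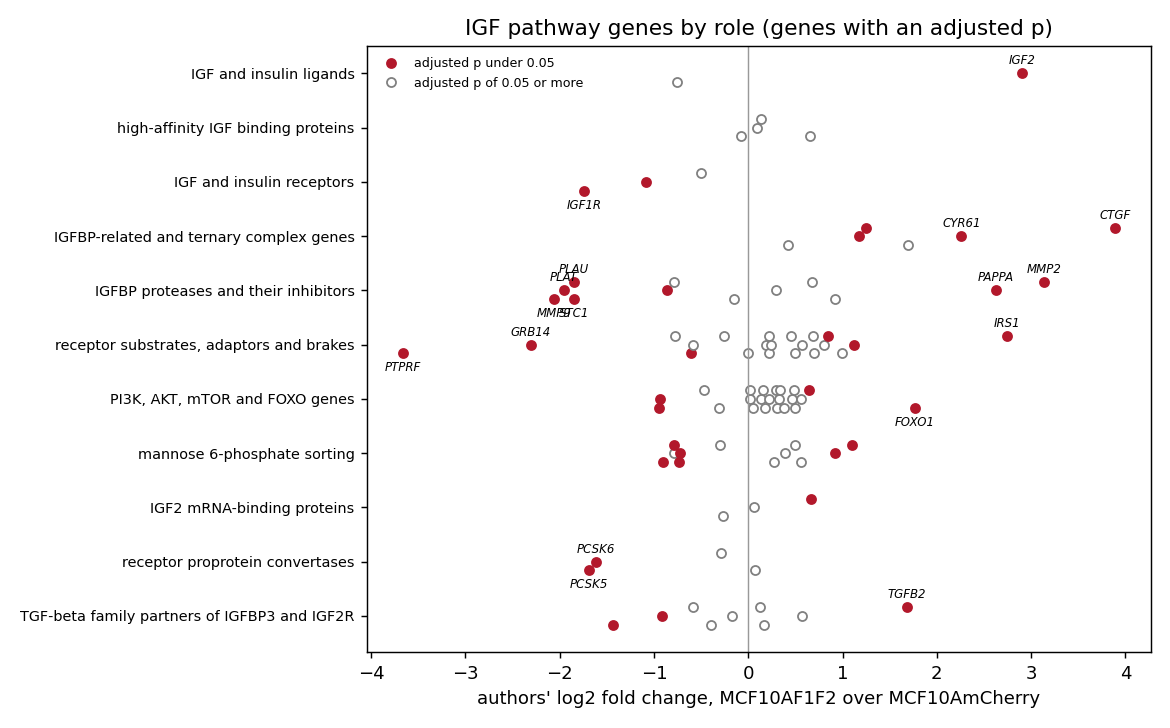
Authors' log2 fold change of MCF10AF1F2 over MCF10AmCherry (horizontal axis) for the pathway genes with an adjusted p, 1 row per list by role; filled points are called and open points are not, and vertical offsets only separate points. The receptor row has its 3 points below 0, and the row of IGFBP-related genes has 4 filled points above 0, up to 3.89 for CTGF.

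Of 28 named pathway genes in the limma fit, STC1 and STC2 included, 13 were called in each of the 6 limma fits that left out 1 library. These were CTGF, CYR61, MMP2, PAPPA, PLAT, STC1, PTPRF, IRS1, GRB14, FOXO1, PCSK5, PCSK6 and TGFB2. The other 15 were not called in at least 1 such fit. IRS2 was not called without MCF10AF1F2 library 2 (adjusted p = 0.0655) and AP1M1 without MCF10AF1F2 library 1 or 2 (highest adjusted p 0.0667). M6PR, VPS26A, TGFBR1 and STC2 were not called without MCF10AF1F2 library 1 or 2 or without MCF10AmCherry library 2, with highest adjusted p of 0.0992, 0.0667, 0.122 and 0.0740. GNPTAB was not called without library 1 or 2 of either line (highest adjusted p 0.119), and PIK3R2 without any MCF10AF1F2 library or MCF10AmCherry library 2 (highest 0.107). NOV and IGF2BP3 were called among these fits only without MCF10AmCherry library 3, with highest adjusted p of 0.0729 and 0.133 in the others. WISP2, TSC1, RICTOR and PLAUR were not called with all 6 libraries either. Without MCF10AmCherry library 3, WISP2, TSC1 and RICTOR were called, while PLAUR was called in no fit (0.0758 to 0.396). The authors' deposited Tuxedo table does not call PCSK5 (q = 0.433), PIK3R2 (0.741), IGF2BP3 (0.735), RICTOR (0.393), STC2 (0.114) or VPS26A (0.0579). It does call WISP2 higher (q = 0.0332) and TSC1 and PLAUR lower (q = 0.00932 and 0.000804).

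The pattern of IGF1R over the 6 libraries was shared with many genes: of 11373 genes with a mean of at least 100, 395 had a Pearson r with IGF1R over 0.95 on the log2 scale. The closest were NGFR (r = 0.998), the lincRNA AL050318.1 (0.997) and TRAK1 (0.996). NGFR averaged 3.05 normalized counts in MCF10AF1F2 and 319 in MCF10AmCherry, so it entered this comparison only through the line in which it was high. The likeness includes the difference between the lines.

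Markers of cell types moved between the lines as well. The basal mammary markers summed to 113394 normalized counts in MCF10AF1F2 and 132692 in MCF10AmCherry, with 5 of 7 lower and 0 higher, and each of the 7 was detected in both lines. Of the lower ones, TP63 had 25.6 in MCF10AF1F2 and 1765 in MCF10AmCherry, and KRT17 had 693 and 13306. KRT5 (67351 in MCF10AF1F2 and 48381 in MCF10AmCherry) and KRT6A (26668 and 12744) had higher means without being called. The authors' deposited Tuxedo table calls KRT6A higher (q = 0.00265). The other epithelial markers summed to 38745 in MCF10AF1F2 and 47520 in MCF10AmCherry, with 2 of 6 lower, a sum that KRT7 leads (30007 in MCF10AF1F2 and 18335 in MCF10AmCherry). The 2 that fell were CDH1, with 78.8 in MCF10AF1F2 and 17575 in MCF10AmCherry, and EPCAM, with 81.0 in MCF10AF1F2 and 4607 in MCF10AmCherry (adjusted p = 3.13e-90 and 3.77e-94 in the authors' deposited table of means). KRT8 (3494 in MCF10AF1F2 and 2043 in MCF10AmCherry) was not called there, but the Tuxedo table calls it higher (q = 0.0338). Fibroblast and mesenchymal markers summed to 73266 in MCF10AF1F2 and 13304 in MCF10AmCherry, with 4 of 6 higher and 1 lower, and THY1 at 0 in both lines. That sum was nearly all DCN (42467 in MCF10AF1F2 and 4659 in MCF10AmCherry) and VIM (30572 in MCF10AF1F2 and 8337 in MCF10AmCherry). The lower marker was COL1A1, with 87.7 in MCF10AF1F2 and 268 in MCF10AmCherry (adjusted p = 0.000368 in the authors' deposited table of means). Immune markers summed to 212 in MCF10AF1F2 and 1096 in MCF10AmCherry, with CD3E at 0 in both. The immune sum was nearly all CD14 (118 in MCF10AF1F2 and 743 in MCF10AmCherry) and CSF1R (89.0 in MCF10AF1F2 and 344 in MCF10AmCherry). PTPRC, the general leukocyte marker, was near the lower end, at 0.343 in MCF10AF1F2 and 2.56 in MCF10AmCherry. The endothelial, hepatocyte and adipocyte lists summed to 627, 1633 and 17.2 in MCF10AF1F2 and to 697, 6057 and 34.5 in MCF10AmCherry; the hepatocyte sum was nearly all SERPINA1 (1629 in MCF10AF1F2 and 6056 in MCF10AmCherry). The part of these differences in the receptor and binding protein results was not tested.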

How the data were processed

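RNA was measured in 3 MCF10AF1F2 and 3 MCF10AmCherry samples, grouped by the titles in the labels, from stranded mRNA libraries. The submitters' processing notes name bcl2fastq, HISAT2 2.1.0, HTSeq 0.9.1, DESeq2 1.18.1 and build GRCh37. No source used here gives the annotation release. The authors deposited a table of means, whose 2 signal columns are the group means of size-factor-normalized counts, as the values show. Its log2 fold changes and p-values are the authors', per the file headers. For the members and IGF2 those log2 fold changes are smaller in size than the log2 ratios of the group means. Examples are IGF1R (-1.74 against -1.81) and IGF2 (2.90 against 4.07). The authors' second deposited table, named Tuxedo, holds FPKM, log2 fold changes, a test score and q-values per group, per the file headers; it marks 17022 genes as tested. Its loci were converted to start from 1.

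Each mean has 15 significant digits, and a search for the 3 whole numbers behind it gave a single solution for 99.72% of MCF10AF1F2 and 99.74% of MCF10AmCherry means above 0. Altered means had a solution in 0.65% and 0.3% of 2000 cases. No single solution was found for 74 and 69 genes, with means from 24285 and 20960 upwards, and none of these is a member. In every library the whole numbers had been multiplied and rounded before the size factors, as the values show: MCF10AmCherry library 1, with a fitted factor of 1.3595, has 25 genes at 2 but 1280 at 3. The fitted factors of the other libraries ran from 0.8645 to 1.0385. These values are therefore not reads, and the count test that edgeR would give was not run. The authors' means are built from these same values, so the p-values of that table carry the same limit. Its effect on those p-values was not tested.

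The authors' adjusted p under 0.05 was the main test. limma 3.58.1 (R 4.3.3; trend, robust, Benjamini-Hochberg adjustment) was the alternative; it ran on log2(normalized count + 1) for 15907 recovered genes, those reaching a mean of 10. It was tested on simulated counts without a library effect or rescaling, so that test does not cover these features of the data. Ratios used exact permutation tests. Tables and figures came from numpy 2.4.6, scipy 1.17.1, pandas 2.3.3 and matplotlib 3.10.9 under Python 3.11.15. Promoters were matched by symbol for 8 of the 10 members (10 windows). Named were all members and, in each list, the called genes with the largest fold change, up to 4. Listed symbols were matched through the gene ID, since the files attach LRP1, KRT18 and INS to other loci. Members and lists were chosen with earlier results of these data known. Alternatives were other thresholds, pseudocounts, filters, scalings and left-out libraries. A marker gene on these lists is not reported here.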

Additional observations from a re-analysis of the deposited data

How the results depend on the processing

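No paired analysis was possible because the recovered libraries carry no replicate numbers, so no replicate block was fitted. IGF1R kept its direction and its call under all 15 alternatives. INSR kept its direction under all 15 and lost its call in 4 leave-one-out fits, named in the report. In limma, leaving out each library in turn gave 1 to 3 members lower and 0 higher, against 2 and 0 in the authors' table. Over all genes these fits called 354 to 3494 higher and 645 to 2910 lower, and over the pathway genes 8 to 21 higher and 6 to 18 lower. The lowest counts of higher genes came without MCF10AF1F2 library 1 (354) and the highest without MCF10AmCherry library 3. In those fits IGFBP2 ran from -0.52 to 0.30, IGFBP3 from -0.20 to 1.86 and IGFBP6 from -0.30 to 0.40.

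With an adjusted p under 0.01 the authors' table gave 1317 genes higher and 1561 lower over all genes, and 9 pathway genes lower, against 2298, 2363 and 18 under 0.05. Tuxedo gave 1180 higher over all genes. limma on genes with a mean of at least 100 gave 1304 lower. Without library 3 of both lines limma called 3763 genes higher, IGFBP2 was at 0.49 and IGFBP6 at -0.03. With a term for library 3, chosen after seeing the data, 3908 genes, 26 pathway genes and 1 member (IGFBP3) were higher, and 3 members were lower, with IGF2R joining IGF1R and INSR (adjusted p = 0.0403). Same-numbered libraries carry numbers from the size factors only, and the term for library 3 is not a replicate block. The causes of these changes were not tested. The group spread with 3 libraries limits what could be called, and IGFBP5, IGF1 and IGF2 lie near the lower end of the values.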

Other observations

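IGFL1, a gene named for its likeness to the IGF family and picked here after its values were seen, had 0, 2.03 and 3.08 normalized counts in MCF10AF1F2 libraries, against 99.6, 24.9 and 1331 in MCF10AmCherry libraries. It lacks a p-value in the authors' deposited table of means, as IGFBP3 does, and the authors' deposited Tuxedo table gives q = 0.379. In limma its adjusted p was 0.0259, and the leave-one-out fits ran from 0.00729 to 0.102, with the call lost without MCF10AF1F2 library 1 or 2 or MCF10AmCherry library 1.

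The whole numbers behind the deposited means had been rescaled library by library. In MCF10AF1F2 library 3, with a fitted factor of 0.8645, 1440 genes stand at 2, 1640 at 3 and 526 at 4. In MCF10AmCherry library 1, with a factor of 1.3595, 2560 genes stand at 1, 25 at 2 and 1280 at 3, and 16 values below 60 are skipped. The recovered totals divided by the factor, over genes with a single solution only, were 23289648 in that MCF10AF1F2 library and 14937037 in that MCF10AmCherry library.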
